A study of Mus musculus with 2 samples.

Results

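Expression of 5 cadherin genes (Cdh1, Cdh2, Cdh3, Cdh4 and Cdh11) and of 5 transcription factor genes of the epithelial-mesenchymal transition, EMT (Snai1, Snai2, Twist1, Zeb1 and Zeb2), was compared between cultured retinal progenitor cells and retina. These 10 genes were taken by symbol from a table of 31253 genes, and all 10 were in it. The first library came from mouse neural retina progenitor cells (mNRPCs), which were grown for 24 passages from C57BL/6 mouse retina. By the study's methods, such cells were taken from adult mice and kept in a medium with the mitogen bFGF and with CHIR99021, which blocks the kinase GSK3. The second library came from C57BL/6 retina, whose age was not given in the labels. There was 1 library per group, so the mNRPCs stand for 1 culture, no difference has a replicate check and no p-value was calculated. Whether more cells or more RNA per cell lay behind a higher level cannot be told apart in such bulk samples.

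Classical cadherins are transmembrane proteins that join neighbouring cells in the presence of calcium, and their inner ends bind catenins, which connect them to actin. Cdh1 (E-cadherin) is typical of epithelia, and Cdh2 (N-cadherin) of neural and many mesenchymal cells. In EMT, factors of the Snail, Twist and Zeb families bind E-box motifs, repress epithelial genes such as Cdh1, and cells take on mesenchymal features and become motile. In the neural retina, where Cdh2 holds the neuroepithelium together, E-cadherin is not the main cadherin.

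Levels are given in FPKM, a count of sequenced fragments scaled to transcript length and to the size of the library, and were summed over the transcripts of a gene. As FPKM is per length, levels of different genes can be set side by side. A log2 ratio is log2 of (mNRPC FPKM + 1)/(retina FPKM + 1), and it makes changes of low genes look smaller than they are. A gene was called higher in mNRPCs at a log2 ratio of 1 or more and lower at −1 or less, so that counts of genes rest on this ratio and not on the plain fold, and a low gene can stay under the threshold with a plain fold above 2. The depth was estimated at 6.49e+06 fragments for mNRPCs and 5.06e+06 for retina. A fold is the plain FPKM ratio, and its 95% interval is a Clopper-Pearson interval from estimated fragments that covers counting error only. A value of 0 can be a failed estimate, since Rps19, a ribosomal protein gene used by every cell, was at 0.0586 FPKM in the retina library, so such genes are described as listed at 0.

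The labels were set against marker genes first. Among 7 retinal progenitor markers, Pax6 was at 123 FPKM and Sox2 at 231 FPKM in mNRPCs, but Rax was listed at 0. The 5 rod markers summed to 18437 FPKM in retina and 8.98 FPKM in mNRPCs. For 6 Müller glia markers the sums were 1926 and 54.1 FPKM, in the same order. Surface epithelium markers (5 genes) were all listed at 0 in mNRPCs and summed to 6.18 FPKM in retina. Of the 6 fibroblast markers, Lum and Dpt were listed at 0 in both libraries, and the list summed to 9.93 FPKM in mNRPCs and 6.76 FPKM in retina.

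Of the 10 genes, 4 were called higher in mNRPCs (Cdh11, Snai1, Snai2 and Twist1) and 1 was called lower (Cdh4). Cdh2, Zeb1 and Zeb2 stayed under the threshold, and Cdh1 and Cdh3 stayed under 1 FPKM in both libraries and were not compared. Among the 13780 genes that reached 1 FPKM in either library, 24.5% were called higher and 30.0% lower. The higher genes were 44.9% of those past the threshold, and 30.2% once both libraries were brought to the same total. The 8 compared genes had a median log2 ratio of 1.34, and that over all genes compared was −0.12. Snai1, Snai2 and Twist1 reached 1 FPKM in mNRPCs only, and Cdh4 in retina only. The minimum thus let these genes in through the library where they are high, so no conclusion is drawn from the median. The plot of levels by gene shows the widest gap for Twist1.

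**Figure D1:**
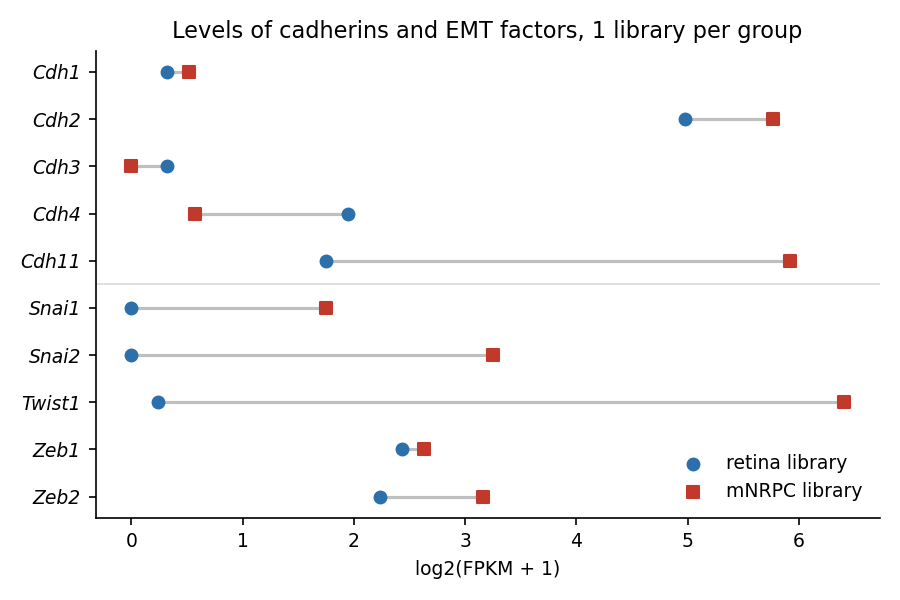
Levels of the 10 genes on a log2(FPKM + 1) axis, with 1 circle for the retina library and 1 square for the mNRPC library, joined by a line. Twist1, Cdh11 and Snai2 lie far to the right in mNRPCs, Cdh4 lies to the left, and Cdh1 and Cdh3 lie near 0 in both libraries.

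Cdh1 was at 0.432 FPKM in mNRPCs and at 0.246 FPKM in retina. These values rest on an estimated 12.4 and 5.51 fragments, and the fold of 1.75 had an interval from 0.599 to 5.95, so no difference was detectable at this depth. Cdh3, the gene of P-cadherin, which is typical of basal and pigment epithelia, lies next to Cdh1 on chromosome 8 with 0 protein-coding genes in between. Its level was listed at 0 in mNRPCs, while the retina library had 0.248 FPKM, an estimated 5.49 fragments divided almost evenly over its 2 transcripts. In mNRPCs, 3 fragments of Cdh3 would be 0.106 FPKM. Markers of the pigment epithelium (6 genes) summed to 75.4 FPKM in retina and 0.309 FPKM in mNRPCs, with Rpe65, Ttr and Mlana listed at 0 in the latter. Their part in the Cdh3 value was not tested.

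Cdh2 had the highest level of the 5 cadherins in the retina library, with 30.4 FPKM, and was at 53.4 FPKM in mNRPCs. Nearly all of it was on transcript NM_007664. The fold was 1.76, with a counting interval from 1.61 to 1.92, and the log2 ratio of 0.79 stayed under the threshold. With both libraries at the same total the log2 ratio was 0.30, while the median of all genes moved from −0.12 to −0.68. Relative to that median, Cdh2 was at 0.91 as deposited and 0.98 after rescaling. Within each library Cdh2 exceeded Cdh1, by a factor of 124 in mNRPCs and 124 in retina. Both factors rest on the few estimated fragments of Cdh1, 12.4 and 5.51, so whether they differ cannot be told. The genes nearest to Cdh2 in log2(FPKM + 1) over these 2 libraries were Cenpb, Psmd11 and Plrg1, at distances of 0.0380, 0.0479 and 0.0570, which describes their levels only.

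Cdh11, a type II classical cadherin known from mesenchyme and bone-forming cells, was at 59.3 FPKM in mNRPCs and 2.36 FPKM in retina. It was 25.2-fold higher in mNRPCs (19.8 to 32.6), and its log2 ratio of 4.17 ranked 298 among 13780 genes. The transcript NM_009866 held 96.9% of the gene in mNRPCs and 75.6% in retina, where 2 predicted transcripts shared the rest. Cdh4, the gene of R-cadherin, first known from retina, went the other way, with 0.491 FPKM in mNRPCs and 2.87 FPKM in retina. It was 5.84-fold lower in mNRPCs (3.59 to 9.96), with a log2 ratio of −1.38. A predicted transcript, XM_011239921, held 65.7% of Cdh4 in mNRPCs and 58.9% in retina. With curated transcripts only, the levels were 0.168 FPKM in mNRPCs and 1.18 FPKM in retina, where the added 1 weighs more, and the log2 ratio of −0.90 did not reach the threshold.

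The shares of the 5 cadherins in their sum do not depend on the scaling between libraries. In retina, Cdh2 made up 84.2% of the summed FPKM of the 5 genes, Cdh4 7.94% and Cdh11 6.52%. With curated transcripts only, Cdh4 was at 3.49% and Cdh11 at 5.27%, so the order of these genes depended on predicted transcripts. In mNRPCs, Cdh11 made up 52.2% and Cdh2 47.0%, and Cdh4 was down to 0.432%. Cdh1 was below 1% in each library, with 0.380% in mNRPCs and 0.681% in retina. The sum itself was 114 FPKM in mNRPCs and 36.1 FPKM in retina. The Cdh11 to Cdh2 ratio was 1.11 in mNRPCs and 0.0775 in retina. These shares cover the 5 genes only, and the 14 other cadherins described further on summed to 34.0 FPKM in retina and 26.8 FPKM in mNRPCs.

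**Figure D2:**
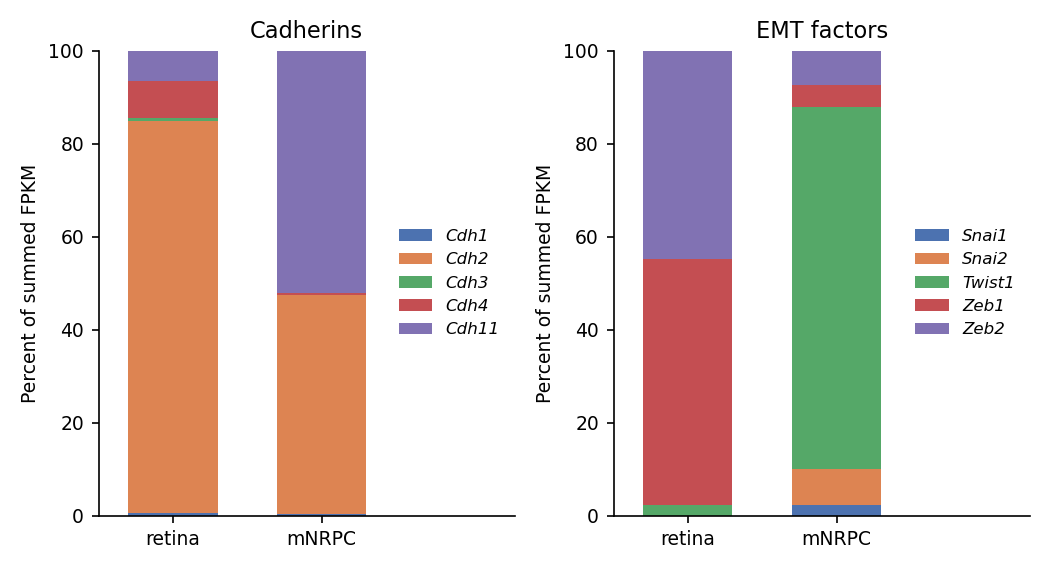
Stacked bars of each gene as a percent of the summed FPKM of its family, for the 5 cadherins (left) and the 5 EMT factors (right), in 1 retina and 1 mNRPC library. Cdh11 takes 52.2% of the cadherin bar in mNRPCs against 6.52% in retina, and Twist1 takes 77.7% of the factor bar in mNRPCs against 2.23% in retina.

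Twist1, a basic helix-loop-helix factor of mesoderm and cranial mesenchyme, was at 83.7 FPKM in mNRPCs and 0.185 FPKM in retina. Its log2 ratio of 6.16 ranked 47 among 13780 genes, and of the 10 genes it had the highest level in mNRPCs. The retina value came to an estimated 1.52 fragments, and the fold of 453 therefore had a wide interval, from 107 to 6141. Snai2 (Slug), a zinc finger factor of neural crest and mesenchyme, was at 8.54 FPKM in mNRPCs (112 fragments by estimate) and was listed at 0 in retina. Snai1 (Snail) was at 2.37 FPKM in mNRPCs (24.9 fragments by estimate) and was also listed at 0 in retina. In the retina library, 3 fragments would be 0.293 FPKM for Snai2 and 0.366 FPKM for Snai1. Each of these 3 genes has 1 transcript in the table.

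**Figure D3:**
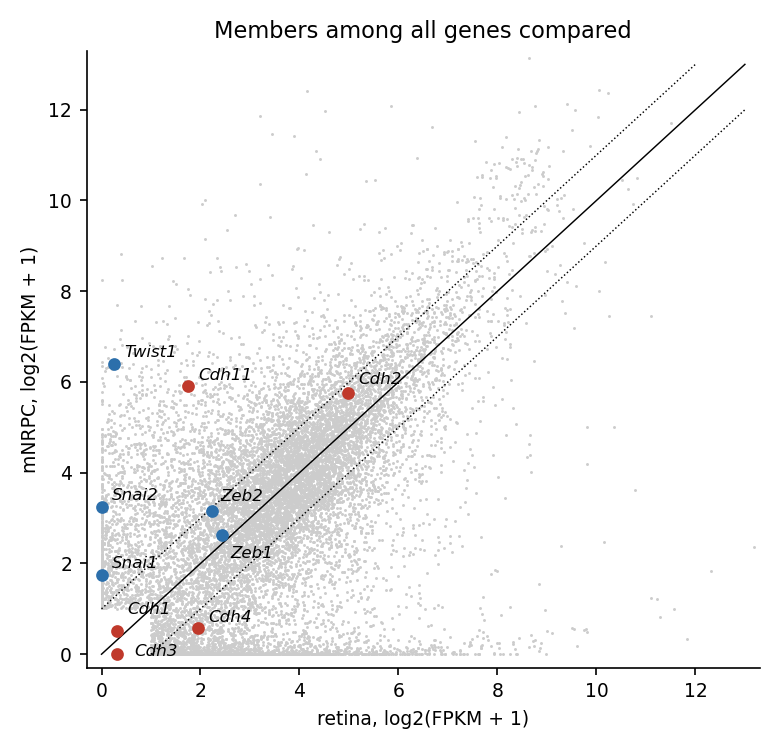
Levels of all 13780 genes compared (grey points) and of the 10 genes (red for cadherins, blue for EMT factors) in retina (horizontal) and mNRPCs (vertical), both as log2(FPKM + 1), with the line of equal levels and dotted lines at log2 ratios of 1 and −1. Twist1, Cdh11, Snai2 and Snai1 lie above the upper dotted line and Cdh4 below the lower one.

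Promoter sequences were at hand for 3 of the 10 genes, Twist1, Snai1 and Zeb2. Those of Twist1 and Snai1 are shown because these genes were called higher in mNRPCs. Each is the 250 bases before the RefSeq start of the gene, on the plus strand of GRCm38.p6, at chr12:33957421-33957670 for Twist1 and chr2:167537945-167538194 for Snai1. Capitals mark matches to 4 short motifs, each searched on both strands, and no marked motif overlaps another. The E-box was searched as CAGGTG, a form that Snail and Zeb factors are known to bind. The core promoter motif known as the TATA box was searched as TATAAA. The GC box, which binds Sp1 and related factors, was searched as GGGCGG, and the CCAAT box by the letters of its name.
Twist1: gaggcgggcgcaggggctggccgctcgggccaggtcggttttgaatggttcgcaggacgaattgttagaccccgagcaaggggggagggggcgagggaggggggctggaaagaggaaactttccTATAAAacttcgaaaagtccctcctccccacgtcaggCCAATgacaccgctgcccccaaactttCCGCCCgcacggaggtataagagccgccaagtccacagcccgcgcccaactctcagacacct
Snai1: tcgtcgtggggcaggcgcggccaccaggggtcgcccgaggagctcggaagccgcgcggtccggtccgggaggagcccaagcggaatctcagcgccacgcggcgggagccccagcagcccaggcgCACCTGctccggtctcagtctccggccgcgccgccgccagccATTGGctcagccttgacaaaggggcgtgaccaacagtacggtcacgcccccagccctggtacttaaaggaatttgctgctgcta

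The Twist1 window held 1 TATA box, at 126 to 121 bases before the start, 1 GC box and 1 CCAAT box, and no match to the E-box letters. The Snai1 window held 1 E-box, at 126 to 121 bases before the start, and 1 CCAAT box. Among 32817 windows of the same length, 17.2% held the E-box letters, 12.4% the TATA box, 32.7% the GC box and 33.8% the CCAAT box. The GC content was 62.4% for Twist1 and 70.0% for Snai1, against a median of 52.4%. Of the 4 Zeb2 windows, none held the E-box letters or a TATA box, the one farthest upstream held 2 CCAAT matches and no GC box, and the other 3 held a GC box and no CCAAT box. A pair of these 3 windows overlap and share the same GC box, at 122 to 117 bases before one start and 148 to 143 bases before the other. These are matches of letters, and no binding was measured.

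Zeb1 and Zeb2, large zinc finger and homeodomain factors that repress Cdh1, were the EMT factors with at least 1 FPKM in retina. Zeb1 was at 5.19 FPKM in mNRPCs and 4.39 FPKM in retina. Its fold of 1.18 had a counting interval from 0.942 to 1.49, and the sign of its log2 ratio, 0.20, depended on the scaling, with −0.25 (the value at a common total) on the other side of 0. Relative to the median of all genes Zeb1 was higher under both, at 0.32 and 0.44. Zeb2 was at 7.93 FPKM in mNRPCs and 3.70 FPKM in retina, a plain fold of 2.14 (1.69 to 2.72). On the log2 scale with 1 added its ratio was 0.92, just under the threshold, and it passed with 0.5 or 0.1 added and, at 1.07, with the largest transcript only. With both libraries at the same total the ratio of Zeb2 was 0.53. Its distance above the all-gene median was 1.04 as deposited and 1.22 at the same total. The 2 curated Zeb2 transcripts, NM_015753 and NM_001289521, held 82.8% and 17.2% of the gene in mNRPCs and 70.5% and 29.5% in retina. The ratio of Zeb2 to Zeb1 was 1.53 in mNRPCs and 0.844 in retina. The order in retina depended on which transcripts were summed. The curated Zeb1 transcript NM_011546 was at 2.79 FPKM there, below the sum of both Zeb2 transcripts but above NM_015753 alone, which was at 2.61 FPKM.

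Of the summed FPKM of the 5 factors, Zeb1 made up 53.0% and Zeb2 44.8% in retina, 41.8% and 55.5% with curated transcripts only, and 49.9% and 46.8% with the largest transcript of each gene. In mNRPCs, Twist1 made up 77.7%, Snai2 7.93%, Zeb2 7.36%, Zeb1 4.81% and Snai1 2.20%. The sum was 108 FPKM in mNRPCs and 8.27 FPKM in retina. All 5 factors reached 1 FPKM in mNRPCs, and 2 did so in retina. In mNRPCs the level of Twist1 exceeded that of Snai2 by a factor of 9.80 and that of Snai1 by 35.3.

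**Figure D4:**
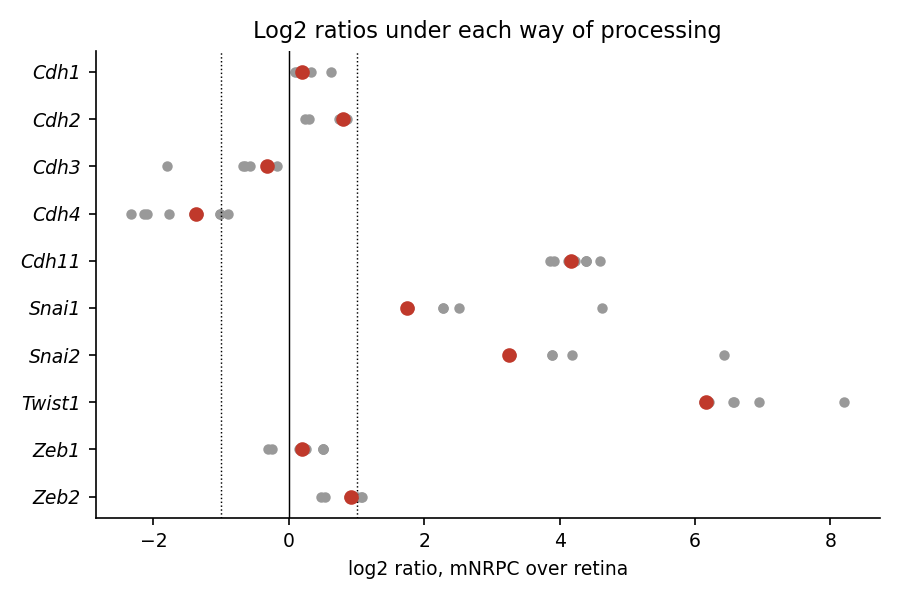
Log2 ratio (mNRPC over retina) of each of the 10 genes as reported (red) and under each other way of processing that bears on it (grey), with dotted lines at the thresholds of 1 and −1. Twist1, Snai2, Snai1 and Cdh11 stay right of the threshold throughout, Cdh4 lies on either side of it on the left, and Zeb1 lies on both sides of 0.

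Other genes of the same processes were then compared by lists (plot of log2 ratios by list). These counts describe the 2 libraries. Of all 13780 genes compared, 24.5% were higher and 30.0% lower, and these shares are to be set beside the compared genes of a list only. A gene low in 1 library was compared only if the other reached 1 FPKM, which bears on the list medians too. The first list held 13 further classical cadherins and Cdh13 (T-cadherin), which is anchored by a lipid and has no catenin-binding end. Of these 14 genes, 1 was higher in mNRPCs, 8 were lower, 1 stayed under the threshold and 4 were not compared, with a median of −1.71. The higher one was Cdh13, at 23.5 FPKM in mNRPCs and 1.72 FPKM in retina. Cdh8, a type II cadherin of neurons, had 6.96 FPKM in retina and was listed at 0 in mNRPCs, and Cdh24 was at 1.07 and 6.51 FPKM. In mNRPCs 7 of the 14 were listed at 0, among them Cdh5, the endothelial cadherin. The 6 endothelial markers, which include Cdh5, summed to 39.4 FPKM in retina and 0.132 FPKM in mNRPCs.

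Of 12 catenins and cadherin partners, 5 were higher, 2 lower, 4 under the threshold and 1 was not compared, with a median of 0.64. Ctnnb1, the gene of β-catenin, was at 172 FPKM in mNRPCs and 127 FPKM in retina, a log2 ratio of 0.43 and under the threshold. All deposited FPKM summed to 616860 in mNRPCs and 432256 in retina, a ratio of 1.43. The direction for Ctnnb1 therefore depends on the scaling between libraries. Ctnna1, the widely used α-catenin, was at 72.4 and 22.6 FPKM, and Vcl, the gene of vinculin, at 52.9 and 8.11 FPKM. Ctnna2, the neural α-catenin, was lower, at 1.05 FPKM in mNRPCs and 8.39 FPKM in retina. Of 12 genes of proteases that cut cadherins and related factors, 5 were higher, 1 lower, 4 under the threshold and 2 were not compared. The median was 0.88. Adam10, a sheddase of E- and N-cadherin, was at 60.9 and 15.3 FPKM, Adam15 at 88.5 and 16.5 FPKM, Ncstn, a γ-secretase subunit, at 72.4 and 20.8 FPKM, and Mmp14 at 46.1 and 4.06 FPKM. Mmp9 was the lower one, at 1.27 and 4.31 FPKM.

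Among 12 other transcription factors associated with EMT, 7 were higher in mNRPCs, none was lower, 1 stayed under the threshold and 4 were not compared, with a median of 2.72. Prrx1, a homeobox factor of limb and head mesenchyme, was at 108 FPKM in mNRPCs and 0.439 FPKM in retina. Tcf12 was at 132 and 18.3 FPKM and Tcf3 at 61.1 and 13.5 FPKM, both genes of E proteins that pair with Twist1. Klf8, at 1.21 and 0.122 FPKM, lay just under the threshold with a log2 ratio of 0.98. Of 12 genes of TGF-β signalling, a known inducer of EMT, 7 were higher and 1 lower, with a median of 1.75. Smad4, the common mediator, was at 87.8 and 19.8 FPKM, Smad3 at 21.6 and 6.27 FPKM and Tgif1, a repressor of the pathway, at 51.5 and 2.64 FPKM. Smad2 was at 3.99 FPKM in mNRPCs and 9.72 FPKM in retina.

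**Figure D5:**
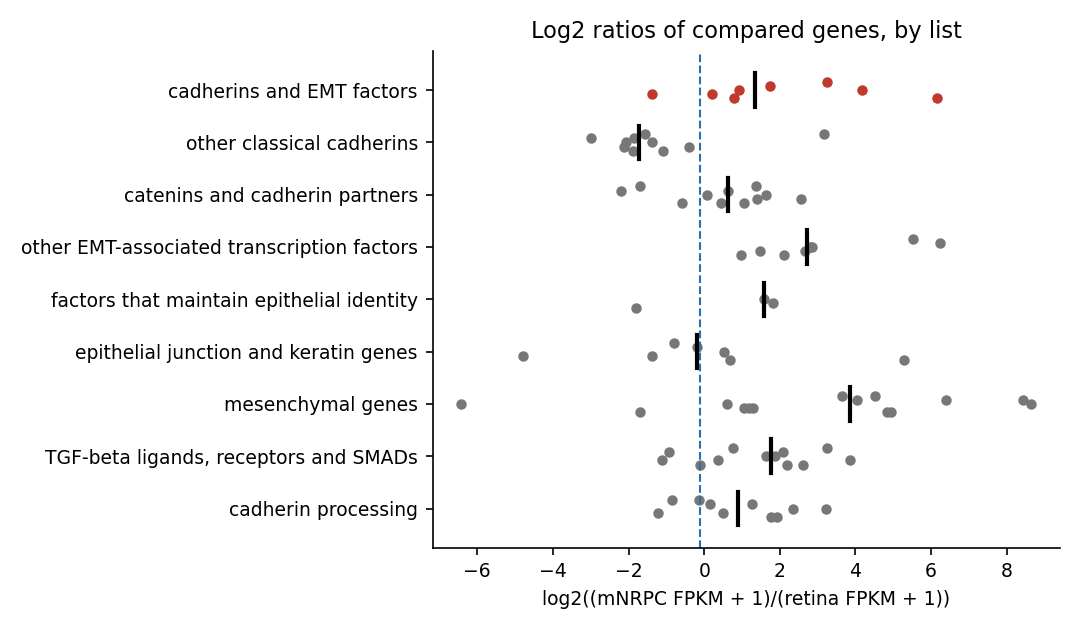
Log2 ratios (mNRPC over retina) of the compared genes of each list, with 1 point per gene, a black bar at the list median and a dashed line at the median of all genes compared, −0.12. The bar of the mesenchymal genes lies at 3.85 and that of the other classical cadherins at −1.71.

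Epithelial genes were mostly low in both libraries. Of 12 genes of factors that maintain epithelial identity, 9 were under 1 FPKM in both and were not compared, and in mNRPCs 7 were listed at 0, Esrp1, Esrp2 and Ovol1 among them. Klf4 (8.36 and 1.67 FPKM) and Klf5 (2.37 and 0.120 FPKM), which other cell types use as well, were higher in mNRPCs, and Grhl1 (0.0398 and 2.60 FPKM) was lower. Of 20 epithelial junction and keratin genes, 13 were not compared, 1 was higher and 2 were lower. Epcam, Cldn3 and Cldn4 were listed at 0 in both libraries. Cldn1, a tight junction claudin, was at 76.5 FPKM in mNRPCs and 0.986 FPKM in retina, and Tjp1, the gene of ZO-1, at 27.5 and 19.0 FPKM. Tjp1 stayed under the threshold, with a log2 ratio of 0.51, a difference about the size of that between the library totals. Krt18, a simple epithelial keratin, had 26.5 FPKM in retina and was listed at 0 in mNRPCs.

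Of 16 mesenchymal genes, 11 were higher in mNRPCs, 2 were lower, 1 stayed under the threshold and 2 were not compared, with a median of 3.85. Vim, the gene of the intermediate filament vimentin, was at 3138 FPKM in mNRPCs and 101 FPKM in retina, S100a4 at 3699 and 8.23 FPKM and Sparc, a matrix protein gene, at 667 and 52.0 FPKM. Thy1, which in retina is known from ganglion cells, was lower, at 0.244 and 106 FPKM. Not every gene of this list was higher, as Tagln and Lox were listed at 0 in mNRPCs. The collagen genes of the list were split. Col3a1 was at 450 FPKM in mNRPCs and 0.311 FPKM in retina. Col1a1 stayed under the threshold, at 1.35 and 0.552 FPKM, and Col1a2, at 0.0843 and 0.952 FPKM, was not compared. Of the 6 fibroblast markers, Fbln1 was at 5.85 FPKM in mNRPCs and 2.95 FPKM in retina, Dcn at 1.96 and 2.58 FPKM, Pdgfra at 1.76 and 1.23 FPKM and Col6a3 at 0.351 FPKM and listed at 0, and Lum and Dpt were listed at 0 in both. Their part in the values of the mesenchymal genes was not tested. The 5 pericyte markers summed to 0.267 FPKM in mNRPCs and 9.82 FPKM in retina, with Rgs5, Kcnj8 and Abcc9 listed at 0 in mNRPCs.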

How the data were processed

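The deposited values were FPKM, estimated by the authors for 106754 RefSeq transcripts in 2 libraries. The submitters' processing notes name TopHat2 2.0.10 and GRCm38.p3. The study's methods name Bowtie 2 and eXpress, but for mNRPC libraries of other treatments sequenced on another platform, so which tool gave the FPKM used here is not certain. Values of single transcripts are less certain than gene sums.

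Accessions were matched without version to RefSeq genes of GRCm38.p6, and the remainder through GENCODE M21, which gave symbols to 69.6% of rows, and a member transcript among the other rows would be missed. Rows were summed per gene, with values below 1e-06 read as 0. RefSeq gene positions served only to see which genes neighbour each other, and promoters came from RefSeq. Depth was read from the peak of low FPKM times length over 6230 genes with 1 transcript of at least 1500 bases. The calls were run on data simulated from the retina levels, with counting error and a set of changed genes. That simulation had no variation between cultures and no shift of most genes, so it does not bear on scaling or replicates.

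The 10 genes are named throughout. From each list the 3 genes with the highest level and those with the largest and smallest log2 ratio are named, and a few others were picked after their values were seen. Members and lists were chosen with earlier results of these data known. Alternatives covered pseudocount, minimum, scaling, transcript rows, accession versions and threshold. Protein sequences were not used here. Python 3.11.15, pandas 2.3.3 and scipy 1.17.1 were used.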

Additional observations from a re-analysis of the deposited data

How the results depend on the processing

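The number of genes called higher in mNRPCs was 4 as reported and lay between 2 and 5 under the alternatives. It was 2 when accessions were matched with their version, which left 6 of the 10 genes in the table. The number of lower genes was 1, and it was 0 at a minimum of 5 FPKM, with curated transcripts only and with the threshold at a log2 ratio of 2, each of which took out Cdh4. Of 86 log2 ratios of the 10 genes under the alternatives, 52 stayed within counting error and 34 moved. Among the latter, Zeb1 changed sign, from 0.20 to −0.25 at a common sum and −0.30 without rod markers. Twist1 ranged from 6.13 to 8.20, Snai2 from 3.23 to 6.43, Snai1 from 1.73 to 4.63, Cdh11 from 3.86 to 4.60 and Cdh4 from −2.33 to −0.90. The highest values of the first 4 came with a pseudocount of 0.1. The median of the factors that maintain epithelial identity, 1.59 over 3 genes, turned to −0.0674 with no minimum and to −1.01 without rod markers and with a common sum, where in each case more of its 12 genes passed the minimum. The other list medians ranged from −3.87 to −1.24 for other cadherins, 0.12 to 1.29 for catenins and partners, 1.78 to 2.92 for other EMT factors, 2.48 to 4.52 for mesenchymal genes, 1.29 to 1.96 for TGF-β signalling and 0.29 to 1.27 for cadherin processing. That of epithelial junction and keratin genes, −0.18, lay between −1.30 and 0.51. Depth limits Cdh1, Cdh3 and the retina values of Snai1, Snai2 and Twist1, which rest on few estimated fragments or are listed at 0. No paired analysis was possible because there was only 1 library of each kind.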
